A study of Mus musculus with 24 samples.

Results

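H3K27ac and H3K4me1, 2 histone marks of enhancers, were mapped by ChIP-seq in N1E115 cells grown for 3 days at 20% oxygen. N1E115 is a line from a mouse neuroblastoma, a tumour of the sympathetic nervous system, and the cells used were positive for NOS1, the neuronal nitric oxide synthase. The 4 libraries considered here, 2 per mark, are 4 of 24 samples of the series and were picked by their labelled mark and oxygen level. The other samples are H3K4me3, H3K36me3 and H3K27me3 at 20% oxygen and all 5 marks at 4% oxygen, again with 2 libraries each, plus 4 inputs that were not analysed here. Replicate 1 of each mark is called set 1 and replicate 2 set 2. Each set had an input number of its own in the labels. The labels do not tell whether replicates are separate cultures, and p-values and SDs then measure the spread of libraries, which may be technical only. All cells belong to 1 line and all groups are NOS1-positive, and within a bulk population a region marked in a subset of cells cannot be told apart from one marked weakly in all of them.

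Nucleosomes at enhancers carry H3K4me1, placed by the methyltransferases Kmt2c and Kmt2d, and enhancers in use also carry H3K27ac, placed by the acetyltransferases Ep300 and Crebbp. Distal sites with both marks are commonly called active enhancers and those with H3K4me1 alone primed or poised enhancers. At promoters of active genes H3K27ac lies on the nucleosomes beside the start together with H3K4me3, while H3K4me1 lies further out. In neuroblastoma of the noradrenergic type, active enhancers cluster around the transcription factors that set the sympathetic lineage, among them Hand2 and Gata3.

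6 promoter windows, chosen by their marks, show the kinds of sequence on which the marks met or lay apart. Each runs from 250 bases before to 50 bases after the RefSeq gene start (GRCm38.p6), 5′ to 3′ on the gene's strand. Capitals mark CpG dinucleotides, the sites of DNA methylation. Tuba1b, an alpha-tubulin gene (chr15:98934341-98934640, minus strand), and Phox2a, a sympathetic lineage factor (chr7:101818063-101818362, plus strand), had H3K27ac and no H3K4me1 in the window. Scg2, a granule protein gene (chr1:79439977-79440276, minus strand), and Myog, a muscle transcription factor (chr1:134289754-134290053, plus strand), had both marks in all 4 libraries. Gfap (chr11:102897151-102897450, minus strand) and S100b (chr10:76253586-76253885, plus strand), both known as glial genes, had H3K4me1 and no H3K27ac.
Tuba1b: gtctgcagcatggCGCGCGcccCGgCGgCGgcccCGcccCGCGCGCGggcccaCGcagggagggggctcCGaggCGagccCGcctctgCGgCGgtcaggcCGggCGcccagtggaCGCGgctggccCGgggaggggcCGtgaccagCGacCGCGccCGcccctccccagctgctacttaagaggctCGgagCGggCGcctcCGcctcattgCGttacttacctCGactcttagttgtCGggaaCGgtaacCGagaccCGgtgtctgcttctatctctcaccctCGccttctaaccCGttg
Phox2a: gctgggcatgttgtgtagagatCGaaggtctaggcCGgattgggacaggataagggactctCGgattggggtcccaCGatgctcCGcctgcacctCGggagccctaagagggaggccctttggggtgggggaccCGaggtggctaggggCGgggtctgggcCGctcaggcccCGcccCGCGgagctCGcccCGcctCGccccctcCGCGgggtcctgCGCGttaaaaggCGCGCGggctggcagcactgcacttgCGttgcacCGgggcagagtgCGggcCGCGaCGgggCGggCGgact
Scg2: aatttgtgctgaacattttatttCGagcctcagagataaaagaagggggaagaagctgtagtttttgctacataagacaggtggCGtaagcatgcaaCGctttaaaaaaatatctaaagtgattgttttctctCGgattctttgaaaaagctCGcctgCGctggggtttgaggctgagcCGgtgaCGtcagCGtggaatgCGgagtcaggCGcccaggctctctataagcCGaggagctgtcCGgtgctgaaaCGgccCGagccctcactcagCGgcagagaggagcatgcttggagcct
Myog: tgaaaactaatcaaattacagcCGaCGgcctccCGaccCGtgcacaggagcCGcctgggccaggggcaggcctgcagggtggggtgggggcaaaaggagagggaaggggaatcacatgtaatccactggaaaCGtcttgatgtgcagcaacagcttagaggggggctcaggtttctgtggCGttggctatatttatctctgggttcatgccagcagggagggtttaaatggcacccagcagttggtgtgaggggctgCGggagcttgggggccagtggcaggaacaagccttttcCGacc
Gfap: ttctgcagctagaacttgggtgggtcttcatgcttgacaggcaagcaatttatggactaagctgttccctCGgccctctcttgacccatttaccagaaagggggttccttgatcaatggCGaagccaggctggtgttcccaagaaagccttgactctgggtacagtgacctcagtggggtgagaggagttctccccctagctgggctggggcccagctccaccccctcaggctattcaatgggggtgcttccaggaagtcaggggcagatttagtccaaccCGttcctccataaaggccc
S100b: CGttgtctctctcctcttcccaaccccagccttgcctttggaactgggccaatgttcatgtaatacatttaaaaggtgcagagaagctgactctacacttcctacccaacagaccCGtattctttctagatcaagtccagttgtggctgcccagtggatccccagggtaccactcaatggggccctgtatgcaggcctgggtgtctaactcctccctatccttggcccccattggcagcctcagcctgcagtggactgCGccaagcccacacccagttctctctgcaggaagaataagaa
The windows held 39 CpG at Tuba1b and 30 at Phox2a, 16 at Scg2 and 9 at Myog, and 3 each at Gfap and S100b. The ratio of observed to expected CpG was 0.989 at Tuba1b, 0.804 at Phox2a, 0.856 at Scg2 and 0.373 at Myog. At Gfap and S100b it was 0.129 and 0.145. H3K27ac peaks covered 300 of 300 bases at Phox2a in both libraries, and 151 and 143 bases at Tuba1b in set 1 and set 2. At Scg2 H3K27ac covered 225 and 71 bases and H3K4me1 32 and 52 bases. At Gfap H3K4me1 covered all 300 bases in both libraries, and at S100b 58 and 300. H3K4me3 covered 300 bases in both libraries at Tuba1b, Phox2a and Myog and 0 at Gfap and S100b. The Scg2 window holds the letters TGACGTCA, a cyclic AMP response element, at bases 183 to 190, that is from 68 bases before the start.

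The same states were then counted across all 21262 windows of protein-coding genes (17491 genes). H3K27ac without H3K4me1 was found in both libraries at 6703 windows (31.5%), both marks at 295 and H3K4me1 alone at 155. At 11232 windows no library had either mark, and 2877 were unresolved because the libraries of a mark disagreed. Median GC content was 63.3% for H3K27ac alone, 55.3% for both marks, 52.3% for H3K4me1 alone and 50.7% for neither, against 56.3% for all windows. The median ratio of observed to expected CpG was 0.833, 0.307, 0.239 and 0.280 in that order. Median CpG numbers were 24, 6, 5 and 5. In CpG ratio and number, windows with both marks thus lay near those with H3K4me1 alone and near those with neither mark. In both values Scg2 was above the medians of its class. Letters were searched on both strands. The E-box CAGCTG was in 27.8% of windows with both marks and 21.3% of those with H3K4me1 alone, in 12.9% of those with H3K27ac alone and in 15.6% of all windows. An AP-1 site, TGAGTCA or TGACTCA, was in 11.2% of windows with both marks, 5.16% with H3K4me1 alone, 2.49% with H3K27ac alone and 4.66% of all. The GC box GGGCGG was in 70.3% for H3K27ac alone, 36.9% for both marks, 25.8% for H3K4me1 alone and 46.2% for all. H3K4me3, not used for these states, lay in 99.8% ± 0.0844 (SD, n = 2 libraries) of the H3K27ac-alone windows. It lay in 65.3% ± 5.99 of those with both marks and 30.3% ± 0.912 of those with H3K4me1 alone. For windows with neither mark the share was 16.4% ± 0.308, and for all windows 53.2% ± 0.339.

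H3K27ac peaks numbered 69131 in set 1 and 85201 in set 2 and covered 59.6 and 65.4 Mb. H3K4me1 peaks numbered 126503 and 124803 and covered 105.9 and 81.8 Mb. Peaks were called by the authors in each library, and the depth of these libraries is unknown. Within 1 kb of a gene start lay 29.0% and 25.9% of H3K27ac peaks (mean 27.4% ± 2.16, SD, n = 2), against 15.2% and 8.49% of H3K4me1 peaks (11.8% ± 4.73, n = 2). The marks did not overlap in this share, which was 2.32 times higher for H3K27ac. The exact two-sided permutation test gave p = 0.333, the smallest value that 2 against 2 libraries allow. Peaks more than 2500 bp from any start of a protein-coding or lncRNA gene are called distal from here on. They made up 65.5% ± 1.53 of H3K27ac and 77.6% ± 4.02 of H3K4me1 peaks (n = 2 each, exact permutation p = 0.333).

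Around the starts of protein-coding genes the marks formed nested layers. At the start itself H3K27ac peaks were present at 17.8% (set 1) and 17.6% (set 2) of starts and H3K4me1 peaks at 3.01% and 1.66%. H3K27ac was most frequent 200 bp downstream, at 40.5% and 42.5% of starts, with a lower maximum 300 bp upstream at 31.4% and 31.9%. H3K4me1 was most frequent further out, 1100 bp downstream in set 1 (25.3%) and 1500 bp downstream in set 2 (14.7%). Its upstream maxima were 18.8% at 1000 bp in set 1 and 8.99% at 1400 bp in set 2. The H3K27ac libraries lay close to each other, whereas the H3K4me1 library of set 1 was above that of set 2 on both sides of the start.

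**Figure D1:**
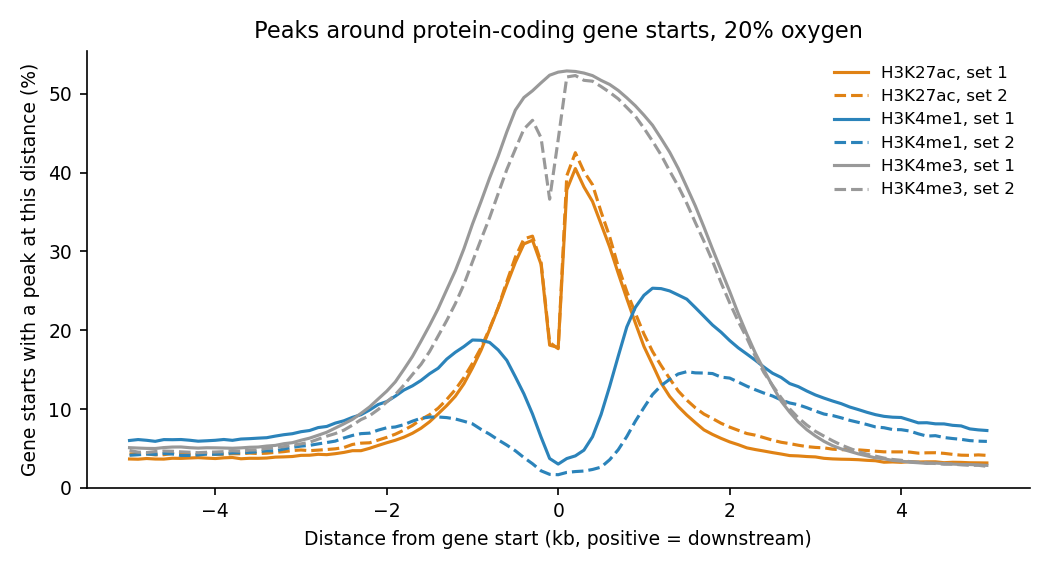
Share of 21262 protein-coding gene starts with a peak at each distance (x axis, kb from the start along the direction of transcription; y axis, percent of starts), for the 6 libraries of 3 marks at 20% oxygen. H3K27ac reaches 40.5% and 42.5% at 200 bp downstream, where H3K4me1 is near its minimum, and H3K4me1 peaks 1100 to 1500 bp downstream.

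Most H3K27ac peaks met H3K4me1, but most H3K4me1 peaks did not meet H3K27ac. Within the same set, 77.7% (set 1) and 61.8% (set 2) of H3K27ac peaks shared at least 1 bp with an H3K4me1 peak. Of the distal H3K27ac peaks 86.8% and 73.6% did, of those within 1 kb of a start 55.8% and 30.4%. Conversely 37.7% and 40.8% of H3K4me1 peaks shared a base with H3K27ac, 34.3% and 39.8% of the distal ones but 56.3% and 53.5% of those within 1 kb of a start. H3K4me1 peaks that met H3K27ac ranked higher by the authors' score within their list, with a median percentile of 75.4 and 69.7 against 37.8 and 37.5 for the others. They were also wider, with medians of 941 and 642 bp against 333 and 322 bp. In bases, 46.1 Mb lay in both H3K27ac libraries and 61.0 Mb in both H3K4me1 libraries, and 21.5 Mb in all 4. These shared bases were 46.7% of the H3K27ac and 35.2% of the H3K4me1 bases.

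To find where the marks occurred together or alone in both replicates, overlapping peaks of all 4 lists were joined, which gave 148590 regions. Both marks were present in all 4 libraries in 23944 regions (16.1%). H3K27ac was present in both of its libraries and H3K4me1 in none in 8083 regions (5.44%). H3K4me1 was present in both of its libraries and H3K27ac in none in 22862 regions (15.4%). The remaining 93701 regions (63.1%) were unresolved, and 76.8% of these had a peak in 1 library only. Of the 38040 regions with H3K27ac in both libraries, 62.9% had both marks and 21.2% had H3K27ac alone. Of the 55976 regions with H3K4me1 in both libraries, 42.8% had both marks and 40.8% H3K4me1 alone. Regions with both marks were the widest, with a median of 2460 bp against 548 bp for H3K27ac alone and 716 bp for H3K4me1 alone. Classes made within 1 set, where only 1 library per mark has to agree, were larger. They held 36922 and 38816 regions with both marks, 15422 and 32517 with H3K27ac alone, and 78743 and 73863 with H3K4me1 alone.

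The classes differed in their distance to genes. Distal regions made up 79.9% of the regions with H3K4me1 alone (18261), 64.6% of those with both marks (15464) and 23.5% of those with H3K27ac alone (1899). Within the sets alone the distal shares were 78.9% and 81.9% for H3K4me1 alone, 65.6% and 76.0% for both marks, and 37.9% and 46.1% for H3K27ac alone. The 3 classes did not overlap in this share between the sets. Within 1 kb of a start lay 73.1% of the regions with H3K27ac alone, 30.6% of those with both marks and 9.94% of those with H3K4me1 alone. Read the other way, the resolved regions within 1 kb of a start were 47.2% both marks, 38.1% H3K27ac alone and 14.7% H3K4me1 alone. Between 10 and 100 kb 44.9% had both marks, 5.05% H3K27ac alone and the rest H3K4me1 alone. The centre lay inside a protein-coding gene record for 8476 of the 15464 distal regions with both marks (54.8%), 684 of 1899 with H3K27ac alone and 10948 of 18261 with H3K4me1 alone. The order of the distal shares was the same in 13 of 13 planned settings. The H3K27ac-alone class itself depended on single libraries, with 18889 regions without its set 1 library, 14356 without its set 2 library and 16258 without the H3K4me1 library of set 1. The H3K4me1-alone class held 66368 and 66204 regions without the H3K4me1 library of set 1 and of set 2.

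**Figure D2:**
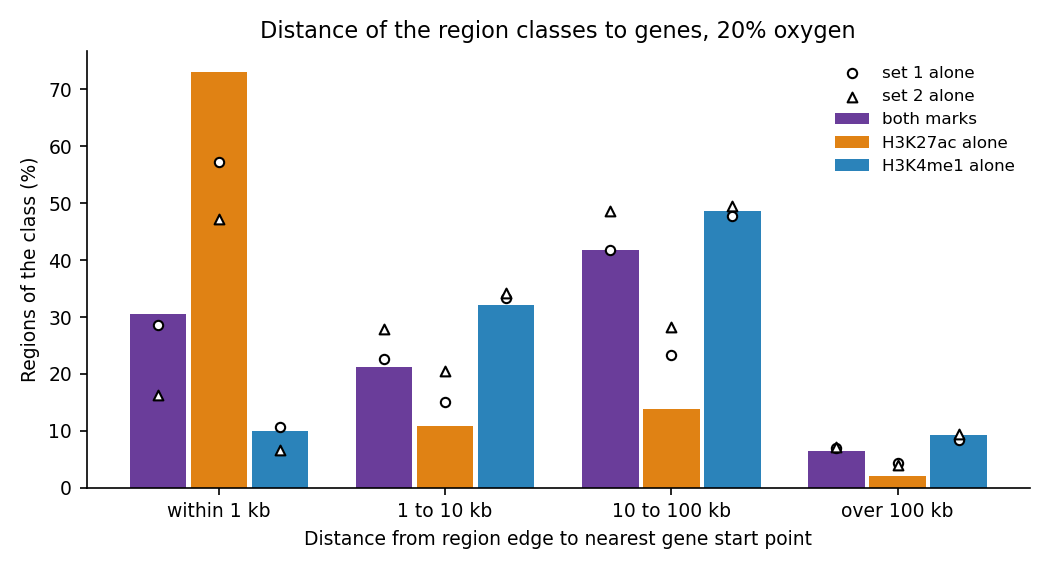
Distance from the region edge to the nearest gene start point (x axis, 4 bins) and the share of each class in the bin (y axis, percent of the class). Bars are regions called over both sets and the points are classes made within set 1 (circles) or set 2 (triangles). H3K27ac alone is the class gathered within 1 kb (73.1%), and H3K4me1 alone has 9.94% there.

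Within regions that held both marks, the marks lay on the same bases more often in distal regions than near gene starts. All 4 libraries shared at least 1 base in all but 10.2% of the 15464 distal regions, against all but 36.3% of the 7327 regions within 1 kb of a start. Of the bases in both H3K27ac libraries, 66.3% lay in both H3K4me1 libraries too in distal regions, against 38.3% near starts. The authors' summits, the points of highest signal, were used for set 2. H3K27ac summits lay inside an H3K4me1 peak in 72.7% of 32667 cases in distal regions and in 44.4% of 14460 cases near starts. H3K4me1 summits lay inside an H3K27ac peak in 66.2% of distal and 56.0% of near cases.

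3 marks that were not used to make the classes were compared between them. Over regions of any width H3K4me3 was the one whose ranges over the 2 libraries were apart for all 3 classes. H3K4me3, the promoter mark, overlapped 43.0% and 43.2% of distal regions with both marks (set 1 and set 2 libraries), 67.5% and 66.5% of those with H3K27ac alone, and 5.53% and 5.96% of those with H3K4me1 alone. These values did not overlap between classes. Since wide regions meet other peaks more easily, regions of 500 to 1000 bp were also compared. In them H3K4me3 overlapped 27.6% ± 1.58 with both marks, 70.2% ± 0.193 with H3K27ac alone and 5.96% ± 0.0195 with H3K4me1 alone (SD, n = 2 libraries). Distal regions with H3K27ac alone therefore carried the promoter mark in most cases while lying over 2500 bp from any protein-coding or lncRNA start point. Starts of other RefSeq records were not used. H3K36me3, the mark of transcribed gene bodies, overlapped 27.5% ± 1.51 of distal regions with both marks, 26.3% ± 0.825 with H3K4me1 alone and 9.87% ± 0.186 with H3K27ac alone. At 500 to 1000 bp these shares were 18.2% ± 1.32, 25.8% ± 0.632 and 8.62% ± 0.193, so that H3K4me1 alone then lay above both marks. H3K27me3, the Polycomb mark, which the same lysine cannot carry together with H3K27ac, overlapped 0.605% ± 0.206 of distal regions with both marks. It overlapped 2.78% ± 0.0736 of those with H3K4me1 alone and 2.79% ± 0.372 of those with H3K27ac alone (n = 2 each), and these last values overlapped. At 500 to 1000 bp H3K27me3 stood at 0.611% ± 0.153 with both marks, 2.90% ± 0.107 with H3K4me1 alone and 3.21% ± 0.0967 with H3K27ac alone.

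**Figure D3:**
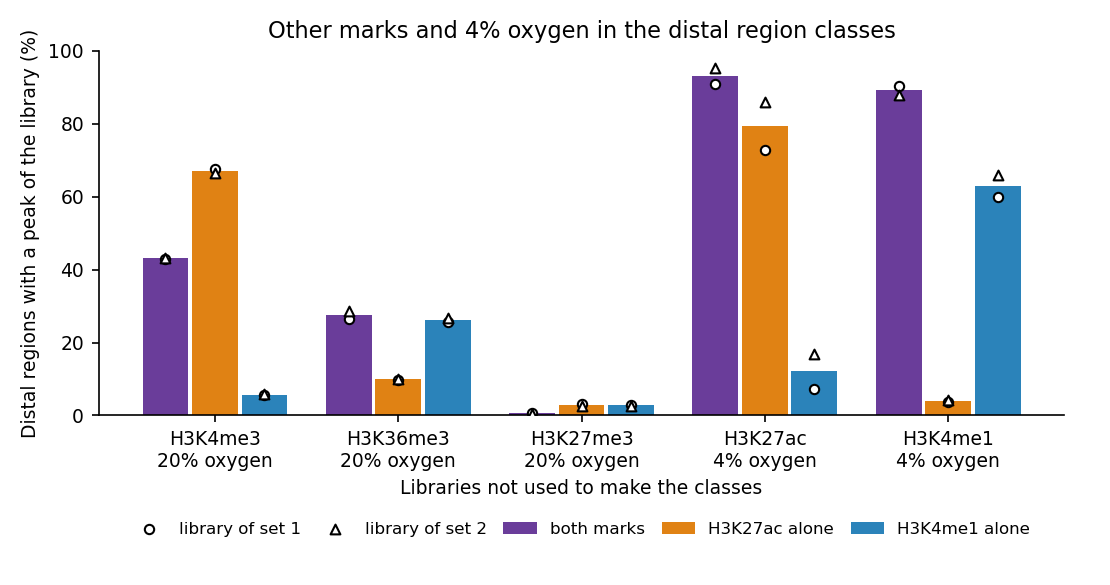
Share of distal regions (y axis, percent) that meet a peak of 10 libraries not used for the classes (x axis, 5 groups of 2 libraries). Bars are means of 2 libraries, circles the set 1 and triangles the set 2 library. H3K4me3 is at 43.1% with both marks, 67.0% with H3K27ac alone and 5.74% with H3K4me1 alone.

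Distal regions with both marks at 20% oxygen were mostly found again in the 4% oxygen libraries, and those with H3K4me1 alone less completely. H3K27ac peaks at 4% oxygen overlapped 90.8% and 95.3% of the distal regions with both marks, and H3K4me1 peaks 90.4% and 87.9%. Of the regions with H3K4me1 alone, H3K4me1 at 4% oxygen overlapped 59.9% and 66.0%, and 3780 (20.7%) met it in neither 4% library. In the width range of 500 to 1000 bp the H3K4me1 shares were 61.3% ± 3.15 for both marks and 60.4% ± 5.80 for H3K4me1 alone (n = 2), a difference within the spread of the libraries. Of the distal regions with H3K27ac alone, H3K4me1 at 4% oxygen overlapped 3.63% and 4.37%, and 13 of 1899 in both libraries. H3K27ac at 4% oxygen overlapped 72.7% and 86.0% of them. At 500 to 1000 bp the H3K27ac shares were 85.4% ± 8.51 for H3K27ac alone and 82.0% ± 8.34 for both marks (n = 2). H3K27ac at 4% oxygen appeared at 7.36% (set 1) and 16.8% (set 2) of the distal H3K4me1-alone regions. With equal numbers of peaks in the 4% lists these shares were 7.36% and 6.98%. Per the file headers, the 4% H3K27ac library of set 1 was on another flow cell than the 20% libraries of its set, and the part of this in the values was not tested.

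829 distal regions with H3K4me1 alone had an H3K27ac peak in both 4% libraries, which is 4.54% of all 18261. For the 53 such regions assigned to 18 hypoxia response genes the count was 8 (15.1%), 1 region at each of 8 genes: Vegfa, Adm, Bnip3l, Egln3, Slc2a1, P4ha2, Pfkfb3 and Epas1. For comparison it was 1 of 80 near noradrenergic transcription factors (1.25%), 2 of 65 near neuronal genes (3.08%) and 2 of 13 near housekeeping genes (15.4%). At Slc2a1, the main glucose transporter gene, the region chr4:119098095-119098754, 9991 bp from the start, had 563 and 433 bp of H3K4me1 and 0 bp of H3K27ac at 20% oxygen. At 4% oxygen H3K27ac covered 537 and 579 of its 660 bp. At Vegfa, the vascular growth factor, the region chr17:46003570-46005341 lay 19822 bp from the nearest start point, which is inside the gene record. The region had 1666 and 392 bp of H3K4me1 at 20% oxygen and 1287 and 472 bp of H3K27ac at 4%. At Adm, a vasodilator peptide gene, the region chr7:110638008-110638955, 10351 bp from the start, had 695 and 661 bp of H3K4me1 at 20% and 202 and 478 bp of H3K27ac at 4%. The choice of these regions fixes both the absence of H3K27ac at 20% and its presence at 4% oxygen, so these values are a description only. In the other direction, 379 of 15464 distal regions with both marks (2.45%) met H3K27ac in neither 4% library. Distal regions with both marks were wider, with a median of 2467 bp against 715 bp for H3K4me1 alone. At widths of 500 to 1000 bp, 103 of 1391 regions with both marks met H3K27ac in neither 4% library. In that range 305 of 7271 H3K4me1-alone regions met H3K27ac in both, a smaller share, so the order was reversed.

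The distance from H3K4me1-alone regions to regions with both marks was measured next. Of the 18261 distal regions with H3K4me1 alone, 6496 (35.6%) lay within 5 kb of a region with both marks, and the median distance was 10754 bp. For distal H3K27ac-alone regions the values were 38.1% and 14225 bp. More than 100 kb away lay 1598 of the H3K4me1-alone regions (8.75%) and 447 of the 1899 H3K27ac-alone regions (23.5%). The H3K27me3 share of H3K4me1-alone regions was 0.654% ± 0.0980 within 5 kb, 3.52% ± 0.132 from 5 to 100 kb and 6.79% ± 0.398 beyond (SD, n = 2 libraries). H3K36me3 went the other way, from 33.5% ± 1.27 through 23.6% ± 0.661 to 14.2% ± 0.0442. For both marks the libraries did not overlap between these distance ranges, and median widths of the regions were similar, at 647, 755 and 708 bp.

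Distal regions were assigned to the nearest protein-coding gene within 100 kb. Of 21883 genes, 4283 (19.6%) had at least 1 distal region with both marks, 5141 (23.5%) at least 1 with H3K4me1 alone and 1129 (5.16%) at least 1 with H3K27ac alone. 699 genes (3.19%) had 5 or more with both marks, and 2225 (10.2%) had H3K4me1 alone and no distal region with both marks. At the start, 5420 genes (24.8%) had a region with both marks within 1 kb, 5141 (23.5%) one with H3K27ac alone and 1669 (7.63%) one with H3K4me1 alone. 6864 genes (31.4%) had no peak of either mark within 10 kb.

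Among the genes with most distal regions with both marks were Zfp423 and Dock10 with 22 each, Casz1 with 21, Frmd4a with 19, Pcbp3 with 18, Cadm1 with 17, and Map1b, Nav1 and Nfib with 16. They include transcription factors (Zfp423, Casz1, Nfib) and genes of the neuronal cytoskeleton (Map1b, Nav1). Their records are long, from 95.1 kb for Map1b to 596.4 kb for Frmd4a, against a median of 17.2 kb for all genes. Within the sets alone the count at Zfp423 was 27 and 52 and at Map1b 19 and 36. The H3K4me1-alone regions were most numerous at Pard3, a polarity gene, with 30, at Cadm1 with 27, at the neurotrophin receptor Ntrk3 with 25, and at Vav3 and Rybp with 23. Foxp1 had 22, Jarid2 and Btbd9 21, Mitf 20 and Septin9 19. Pard3 had 5 regions with both marks against its 30, and in the sets alone it had 76 and 77 regions with H3K4me1 alone against 7 and 15 with both marks. Cadm1, an adhesion gene, was the only gene among the first 10 in both orders.

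Among genes without any distal region with both marks, Magi3 had 15 with H3K4me1 alone, Niban1 12, Mical2 and Stac2 10, and Aatf, Exoc4 and Tcf12 9. Within the sets alone some of these genes did have regions with both marks: Exoc4 and Tcf12 5 each in set 1 and 0 in set 2, Magi3 and Mical2 0 and 2, Stac2 1 and 0, and Aatf 0 and 1. Niban1 had 0 in either set. In both sets H3K4me1 alone was more frequent, from 14 regions at Stac2 in set 2 to 29 at Tcf12 in set 1. Jag1, a Notch ligand, had 8 over both sets. H3K27ac alone was most frequent near Edn3, the endothelin-3 gene, with 20 distal regions beside 8 with both marks and 0 with H3K4me1 alone. Tbx3 had 8 with H3K27ac alone and 0 of either other class, and its gene body was 16.4% and 64.3% covered by H3K27me3. Pax2 had 5 with H3K27ac alone, and 95.2% and 96.1% of its body lay in H3K27me3.

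Gene lists for this cell type and for other cell types were counted against these backgrounds. Of 25 noradrenergic transcription factors, 21 had at least 1 distal region with both marks and 11 had 5 or more, and 20 had at least 1 with H3K4me1 alone. For all genes the shares were 19.6%, 3.19% and 23.5%. Within the sets alone 22 and 22 of the 25 had both marks, against 24.0% and 24.2% of all genes. The median record length of these factors, 13.1 kb, was below that of all genes. Klf7 had 12 distal regions with both marks, Insm1 10 and Lmo1 7. Gata3 had 3 and Hand2 1. Phox2a, Hand2, Gata2, Gata3, Isl1, Tbx2 and Mycn had a region with both marks within 1 kb of the start. The marks need not share bases there, and the promoter window of Phox2a held H3K27ac and no H3K4me1. 2 of the 25 (8%) had neither mark within 10 kb, against 31.4% of all genes. 1 of them, Zfp536, had 23.5% and 56.8% of its body in H3K27me3, and the other had no H3K36me3 or H3K27me3 on its body. The lists used here may not hold every peak of the study, which bears on all counts of genes with neither mark.

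Of 19 catecholamine and secretory granule genes, 12 (63.2%) had both marks distally and 9 (47.4%) H3K4me1 alone, against 19.6% and 23.5% of all genes. Chga, which codes for the granule protein chromogranin A, had 9 and 5, and Gch1, the first enzyme of tetrahydrobiopterin synthesis, 8 and 0. Scg2 had 7 and 2, and Slc18a2, the vesicular monoamine transporter, 6 and 1. Th and Dbh, the enzymes that make dopa and noradrenaline, had 1 distal region with both marks each and one at the start. The noradrenaline and dopamine transporters Slc6a2 and Slc6a3 had no distal region of any class, like Maoa, Maob, Pts and Pnmt of the same list, and H3K27me3 covered 87.1% and 93.2% of Slc6a2 and 100% of Slc6a3 in both libraries. Of 16 cholinergic genes 10 (62.5%, against 19.6% of all genes) had both marks distally. The nicotinic receptor subunit Chrnb4 led with 6 and the muscarinic receptor Chrm4 followed with 5.

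Of 28 neuronal genes 17 (60.7%) had both marks distally and 16 (57.1%) H3K4me1 alone, against 19.6% and 23.5% of all genes. Their median record, 44.6 kb, is longer than the 17.2 kb of all genes. Gap43, a growth cone protein, had 14 and 9, Ncam1 10 and 9, Mapt 8 and 4, and Nefm 7 and 0. Elavl4, a neuronal RNA-binding protein, had 2 with both marks and 17 with H3K4me1 alone. Rtn1 had neither mark within 10 kb, and H3K27me3 covered 96.6% and 96.7% of it. Of 16 genes of nitric oxide synthesis and response 11 (68.8%) had both marks distally, against 19.6% of all genes. Here the median record is 46.6 kb. Ass1, which makes the arginine precursor, had 9, and Nos1 had 3 and no H3K4me1 alone. The Nos1 regions were chr5:117778739-117782694, chr5:117789066-117792524 and chr5:117834983-117843442, from 84145 to 23397 bp upstream of the start. In the closest one H3K27ac covered 7006 and 8372 of 8460 bp and H3K4me1 5978 and 5008 bp. H3K36me3 covered 95.8% and 100% of Nos1.

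Of 30 hypoxia response genes 17 (56.7%) had both marks distally and 18 (60%) H3K4me1 alone at 20% oxygen. For all genes the shares were 19.6% and 23.5%. The median record of these 30 is 29.6 kb, against 17.2 kb for all genes. Vegfa had 3 and 10, Epas1 8 and 5, Pfkfb3 7 and 4, and Ddit4 7 and 0. Of 24 genes of the enhancer machinery, with a median record of 64.0 kb, 7 (29.2%) had both marks distally and 11 (45.8%) H3K4me1 alone. At the start 13 (54.2%) had a region with H3K27ac alone, against 23.5% of all genes. There 11 (45.8%) had one with both marks, against 24.8% of all. Of 20 housekeeping genes 5 (25%) had both marks distally and 7 (35%) H3K4me1 alone, against 19.6% and 23.5% of all genes. At the start 12 (60%) had both marks, against 24.8% of all. Both marks distally and H3K4me1 alone were found at 12 and 12 of 23 immediate early genes (52.2% each). For mesenchymal genes the counts were 15 and 13 of 24 (62.5% and 54.2%), with Tead1 at 14 and 17 regions. The mesenchymal genes are long, with a median record of 71.8 kb, and 4 of 24 had both marks at the start, against 24.8% of all genes.

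**Figure D4:**
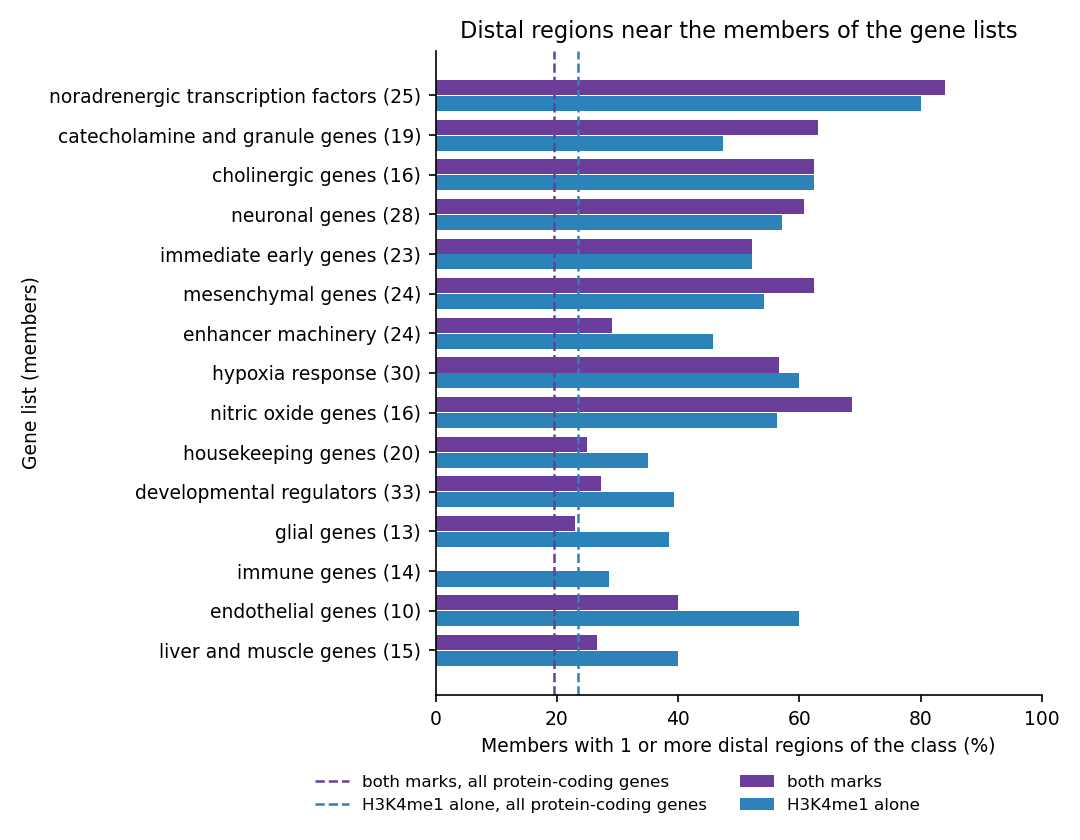
Share of list members (x axis, percent) with at least 1 distal region with both marks or with H3K4me1 alone, for 15 gene lists (y axis, number of members in brackets). Dashed lines are all 21883 protein-coding genes (19.6% and 23.5%). The noradrenergic transcription factors are highest in both, and no immune gene has a distal region with both marks.

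Markers of other cell types were counted the same way. None of 14 immune genes had a distal region with both marks, and 4 (28.6%) had H3K4me1 alone, against 23.5% of all genes. 7 (50%), among them Ptprc, Cd3e and Csf1r, had neither mark within 10 kb, against 31.4% of all. 3 of 13 glial genes and 4 of 15 liver and muscle genes had distal regions with both marks, that is 23.1% and 26.7% against 19.6% of all genes. 4 glial (30.8%) and 6 liver and muscle genes (40%) had neither mark within 10 kb, against 31.4% of all. Sox10 had 2 such regions, Cspg4 2 and Myog 1. Of 10 endothelial genes 4 (40%) did: Pecam1 with 7, Vwf with 5, Cldn5 and Erg with 3 each. The endothelial genes are long, with a median record of 75.5 kb against 17.2 kb for all genes. None of the 10 had a region of any class within 1 kb of the start, and Kdr, Emcn and Cldn5 had neither mark within 10 kb. A part of other cells in these values was not tested, and a nearest gene need not be the gene that a region acts on. Of 33 developmental regulators 9 (27.3%) had both marks distally, 13 (39.4%) H3K4me1 alone and 16 (48.5%) neither mark within 10 kb. For all genes the shares were 19.6%, 23.5% and 31.4%. H3K27me3 covered at least 25% of the body in both libraries at 8 of the 33 (12.8% of all genes). Pax7 combined 2 distal regions with both marks, 6 with H3K4me1 alone and H3K27me3 over 57.8% and 64.0% of its body.

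Klf7 and Elavl4 differed in the class of most of their distal regions and are shown as single loci, chosen after their values were seen. Around Klf7 (chr1, minus strand), a zinc finger factor, the 12 distal regions with both marks spanned 54.1 kb in all. The widest, chr1:64216774-64229675, had 12001 and 10857 bp of H3K27ac and 11433 and 9021 bp of H3K4me1 in its 12902 bp. It lies 95385 bp from the start, and H3K27ac at 4% oxygen covered 11873 and 12856 bp of it. 1 distal region there, chr1:64032974-64033374, had H3K4me1 alone, with 187 and 401 bp. Around Elavl4 (chr4, minus strand) the 17 regions with H3K4me1 alone had a median of 857 bp and 14.8 kb in all, beside 2 distal ones with both marks of 3483 and 4860 bp. Counting regions near starts too, from 120 kb upstream to 160 kb downstream of the start, both marks covered 25.5 kb in 6 regions and H3K4me1 alone 15.4 kb in 18. The same window at Klf7 held 98.8 kb in 20 regions with both marks and 2.25 kb in 4 with H3K4me1 alone. The widest of the 17, chr4:110270403-110272225, had 1823 and 792 bp of H3K4me1 and no H3K27ac at 20% oxygen, and 0 and 186 bp of H3K27ac at 4%. H3K36me3 covered 54.3% and 52.8% of Elavl4 and 96.8% and 94.5% of Klf7. Within the sets alone Klf7 had 18 and 32 regions with both marks against 22 and 6 with H3K4me1 alone. Elavl4 had 6 and 7 against 37 and 30. H3K4me1 alone thus outnumbered both marks at Elavl4 in each set, and at Klf7 in set 1 but not in set 2.

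**Figure D5:**
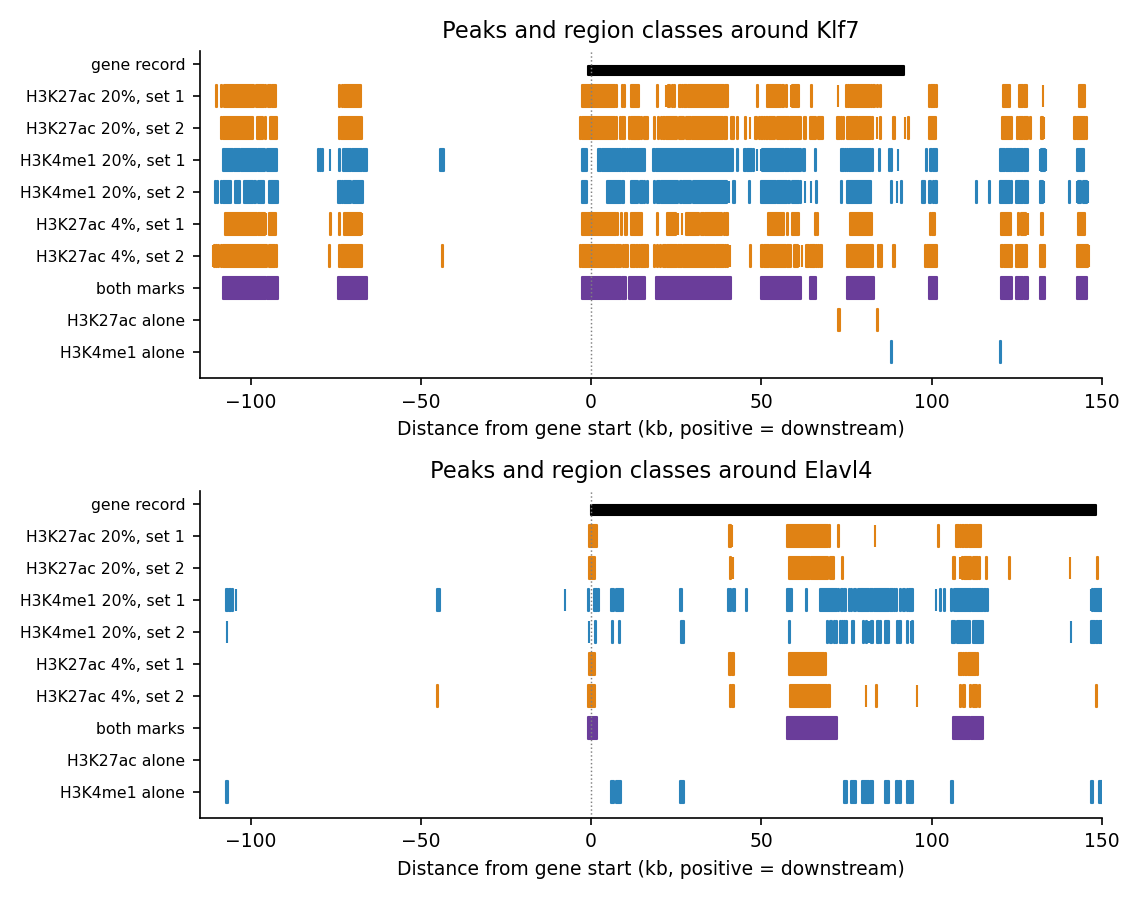
Peaks of 6 libraries and the 3 region classes around Klf7 (top) and Elavl4 (bottom), by distance from the most upstream RefSeq start (x axis, kb, positive downstream). Each row is a library or a class and each bar a peak or region to scale. Klf7 is surrounded by regions with both marks, and Elavl4 has 17 distal regions with H3K4me1 alone against 2 with both marks.

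The regions with the best scores in every library that carries the mark were long for both marks and short for H3K27ac alone. The first with both marks, chr15:26519228-26541483, spanned 22256 bp, with 22024 and 21564 bp of H3K27ac and 16800 and 15599 bp of H3K4me1, and no protein-coding start within 100 kb. Another, chr10:60790324-60831510, spanned 41187 bp at Unc5b, a netrin receptor gene. It had 40434 and 41024 bp of H3K27ac and 38244 and 35663 bp of H3K4me1. The first with H3K27ac alone, chr15:98933059-98934491, lay on the start of Tuba1b, with 1356 and 1357 of 1433 bp. Next came regions at Kdm6b, an H3K27 demethylase gene (chr11:69417652-69418886), Troap and Tarbp2. The first with H3K4me1 alone, chr1:159747183-159751007, had 3465 and 3780 of 3825 bp of H3K4me1 and no H3K27ac in any of the 4 libraries of that mark at either oxygen level.

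Gene bodies were compared by the nearby class, with H3K36me3 and H3K27me3 as readouts that the classes did not use. H3K36me3 covered at least 25% of the body in 62.7% ± 2.53 of the 4283 genes with distal regions with both marks and in 60.1% ± 1.56 of the 2225 genes with H3K4me1 alone only (SD, n = 2 libraries). The ranges of these 2 groups overlapped, but the first was higher within each library. The shares were 60.9% against 59.0% in set 1 and 64.5% against 61.2% in set 2. Both groups were above the 37.2% ± 1.15 of the 15375 genes with neither. H3K27me3 covered at least 25% of the body in 3.99% ± 0.363, 9.01% ± 0.477 and 18.0% ± 0.915, and here the 3 groups did not overlap. Genes with distal regions are longer, so the 1228, 808 and 5258 genes of 8.74 to 31.2 kb in these groups were taken alone. There H3K36me3 stood at 66.4% ± 2.42, 64.4% ± 2.54 and 49.6% ± 1.61, and H3K27me3 at 2.97% ± 0.0576, 8.11% ± 0.0875 and 15.8% ± 0.605. With 10 or more distal regions with both marks (99 genes) H3K36me3 was at 76.3% ± 2.14, against 62.7% ± 2.10 with 1 region (1754 genes). In between there was no steady rise. The libraries gave 59.1% and 63.5% with 2 to 4 regions (1830 genes) and 63.5% and 66.3% with 5 to 9 (600 genes). Both ranges overlapped the 61.2% and 64.1% of genes with 1 region. Within each library, however, 2 to 4 regions lay below genes with 1 region and 5 to 9 above. Only the bin of 10 or more lay above without overlap. Genes with 1 region are shorter than those with 10 or more, with a median of 27.3 kb against 147.7 kb.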

How the data were processed

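BWA, Picard, MACS2 and SICER and the build mm10 are named, without versions, in the submitters' processing notes. Each list holds the peaks of 1 library, per the file headers. For H3K27ac, H3K4me1 and H3K4me3 the deposited column is a −log10 p or q value, used here only to rank or filter peaks. H3K36me3 and H3K27me3 are deposited as islands with a count per island, of which only the positions were used. The set 2 intervals were listed with the first library and were assigned to set 2 because their names and scores matched its summits in 100% of entries.

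Peaks on 21 chromosomes were merged where they overlapped or touched. A mark was present in a region when a peak overlapped it by at least 1 bp. Gene positions came from RefSeq for GRCm38.p6, the assembly of mm10. Records of protein-coding (21883) and lncRNA (12727) genes were used, and other record types were left out. The start was used for the 27024 genes with a known strand and both record ends for the other 7586. Distal regions were assigned to the nearest protein-coding gene within 100000 bp. The members and the 15 gene lists (310 genes, all matched) were chosen with earlier results of these data known. Named genes are the 10 with most distal regions of each class, up to 4 members per list and class with the most regions, members without either mark, and the regions with the best lowest rank; other list members were named after their values were seen, and a few genes that the rule picks are not reported here. Motif letters were also chosen after the files were seen. Percentages per library are counts over regions, so regions are not replicates and SDs are over 2 libraries. Alternatives were a coverage of at least 50%, a score of at least 5, equal peak numbers, a gap of 500 bp, classes within each set, and leaving out each library. Scripts used Python, numpy, pandas and SciPy and were tested on simulated intervals.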

Additional observations from a re-analysis of the deposited data

How the results depend on the processing

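12 results were recomputed under 129 alternative values: 83 stayed within the spread of replicates or, for counts, within 1.5 times, and 46 moved. Where peaks had to cover at least 50% of a region, 6402 regions had both marks (75.5% distal) and 2020 genes had a distal one. In that setting H3K27me3 met 0.341% and H3K36me3 32.1% of distal regions with both marks, and H3K27ac at 4% oxygen met 29.4% of the H3K4me1-alone regions. A gap of 500 bp gave 1589 regions with H3K27ac alone (39.6% distal), 12362 with H3K4me1 alone (87.4%) and 56.9% distal with both marks. Equal peak numbers gave 9197 H3K4me1-alone regions near 3017 genes. With distal set at over 10000 bp the shares were 48.1% (both), 16.0% (H3K27ac alone) and 58.0% (H3K4me1 alone). With protein-coding genes only they were 72.2% for both and 84.4% for H3K4me1 alone.

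With the replicate number as a replicate block, that is with marks paired within set 1 and within set 2, there were 36922 and 38816 regions with both marks, 15422 and 32517 with H3K27ac alone (37.9% and 46.1% distal) and 78743 and 73863 with H3K4me1 alone. H3K4me1-alone genes then numbered 8389 and 7787. In set 2 76.0% of regions with both marks were distal and 26.8% of these met H3K4me3, and in set 1 0.763% met H3K27me3. Leaving out 1 library gave 8589 to 18889 regions with H3K27ac alone (25.8% to 43.6% distal), 26822 to 66368 with H3K4me1 alone near 5447 to 7968 genes, 0.525% to 0.834% of distal regions with both marks meeting H3K27me3, and 8.57% to 20.8% of H3K4me1-alone regions meeting H3K27ac at 4% oxygen. Fewer libraries then have to agree. Alternatives chosen after seeing the data also moved values: both ends of every gene record gave 77.5% distal for H3K4me1 alone, and regions of 500 to 1000 bp gave 27.6% with H3K4me3 and 18.2% with H3K36me3 among distal regions with both marks. For the other moves the cause was not tested. The read depth behind the lists is unknown, so a missing peak is no proof of a missing mark.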

Other observations

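H3K4me1 alone was also found near gene starts, in 2272 regions. H3K4me3 met 61.1% ± 0.218 of them (SD, n = 2 libraries) and H3K27me3 4.80% ± 0.311, against 0.355% ± 0.0772 for H3K27me3 in the 7327 regions with both marks there. H3K27ac at 4% oxygen met 13.1% and 27.9% of them.

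Wide regions of both classes that were assigned to Insm1, a zinc finger factor of neuroendocrine cells, lay far from the gene. The region chr2:146323177-146338980, with both marks, lay 98157 bp from the nearer end of the Insm1 record. It had 12854 and 10062 bp of H3K27ac and 15139 and 14464 bp of H3K4me1. The region chr2:146312033-146316056, 87013 bp from that end, had 3555 and 3321 bp of H3K4me1 and no H3K27ac. At Gch1 the widest region with both marks, chr14:47163195-47173945, 15468 bp from the start, had 10706 and 10309 bp of H3K27ac and 0 and 208 bp of H3K4me3.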
